A study of Mus musculus with 9 samples.

Results

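Matrix metalloproteinases and their inhibitor Timp1 were followed in the colon of mice carrying azoxymethane/dextran sulfate sodium (AOM/DSS) tumors, with and without an antibody against S100a9. The set consisted of 10 genes listed by symbol, 9 metalloproteinases (Mmp2, Mmp3, Mmp7, Mmp8, Mmp9, Mmp10, Mmp12, Mmp13 and Mmp14) and Timp1. The list was drawn up with earlier results of these data known. All 10 were found among the 21498 gene symbols of the series, each on 1 row, and all 10 passed the filter on low values, which required 0.1 FPKM or more in 3 or more samples and kept 15278 genes.

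RNA from the colons of 9 outbred ICR mice, 3 in each group, had been sequenced. All were males aged 5 weeks at the start, and the tissue was taken in week 18. Control mice received neither AOM/DSS nor antibody. Both other groups were given 1 intraperitoneal dose of the carcinogen AOM (10 mg/kg) and 3 cycles of DSS in the drinking water, at 2% for 7 days and then at 1.5% for 5 days in each later cycle; DSS damages the colonic epithelium and causes colitis. During these cycles they were injected intravenously every 2 days with 1.5 mg/kg of a negative control antibody (AOM/DSS + IgG Ab, labeled IgG) or of an antibody that neutralizes S100a9 (AOM/DSS + anti-S100a9 Ab, labeled anti-A9). No group received an antibody without AOM/DSS, and Control mice received no control IgG. The labels call the tissue normal colorectal mucosa in the Control group and colorectal adenocarcinoma in both AOM/DSS groups, while the study's text speaks of mucosa for all 3 groups in one place and, in another, of adenocarcinoma tissue for IgG and of mucosa for anti-A9. How much tumor each piece held is therefore not known, and in every difference between anti-A9 and IgG a difference in the kind of tissue sampled cannot be told apart from the antibody. In such bulk tissue, fewer cells that express a gene and less RNA per cell cannot be told apart.

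Matrix metalloproteinases are zinc-dependent endopeptidases that are made as inactive precursors and cut collagens, laminin, elastin and many cell-surface and soluble proteins once their propeptide is removed. Some are made by epithelial cells, others by fibroblasts or by neutrophils and macrophages, and in inflamed or tumor-bearing colon they take part in matrix turnover, ulceration and invasion. Tissue inhibitors of metalloproteinases, of which Timp1 is the inducible member, bind the active site of the mature enzymes. Transcript levels do not report protein amount, activation or activity.

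Of the 10 genes, 6 lie side by side in the genome. On chromosome 9 of the GRCm38 build, Mmp13, Mmp12, Mmp3, Mmp10, Mmp8 and Mmp7 stand in this order among 10 Mmp genes within 427 kb, chr9:7272514-7699585 (GENCODE M21 annotation). The other 4 are at separate places: Mmp9 at chr2:164940780-164955850, Mmp2 at chr8:92827291-92853420, Mmp14 at chr14:54431612-54445364 and Timp1 at chrX:20870166-20874735, all on the plus strand. Promoter windows of 300 bases (250 before the transcript start and 50 after it) from RefSeq on GRCm38.p6 were at hand for 8 of the 10 genes, not for Mmp2 and Mmp9. The letters TGAGTCA, or TGACTCA when read on the opposite strand, are the core of the AP-1 motif, which Fos and Jun proteins bind. They were present in the windows of 5 of the 8 genes, against 5.2% of 32851 promoter windows of the genome. Here and below, a gene counts if any of its windows holds the letters, whereas the genome share counts single windows. Mmp12 and Mmp7 each had a second window, without an AP-1 match, so the figures are not fully alike. All 5 belong to the chromosome 9 cluster, and neighboring genes share an origin by duplication, so they are not independent. No match was present in the windows of Mmp8, Mmp14 and Timp1. The letters TATAAA, or on the opposite strand TTTATA, are the core of the TATA box. They were present for all 6 cluster genes of the set, Mmp8 included, and not for Mmp14 and Timp1, against 13.6% of all windows. The first match began at position -16 of Mmp13, -7 of Mmp3, -29 of Mmp10, -3 of Mmp8 and -123 of Mmp7, which held 2. In Mmp12 it began 4 bases after the start. The other Mmp7 match lay within the 100 bases printed below, near the place of the Mmp10 match. The second windows of Mmp12 and Mmp7 held none. With first matches at places this unlike, the letters do not show that each is a TATA box. The letters CTTTGAT, or on the opposite strand ATCAAAG, which TCF proteins bind, were present for Mmp7 alone among the 8, against 3.73% of all windows. The 100 bases before the start of the 5 genes with an AP-1 match are shown so that its place in each can be seen; the motif is in capitals, and all sequences read 5′ to 3′ on the plus strand. They span chr9:7272414-7272513 for Mmp13, chr9:7347274-7347373 for Mmp12 (its downstream start), chr9:7445722-7445821 for Mmp3, chr9:7502242-7502341 for Mmp10 and chr9:7691990-7692089 for Mmp7.
Mmp13: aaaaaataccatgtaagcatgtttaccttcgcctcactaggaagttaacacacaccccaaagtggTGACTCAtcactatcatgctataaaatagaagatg
Mmp12: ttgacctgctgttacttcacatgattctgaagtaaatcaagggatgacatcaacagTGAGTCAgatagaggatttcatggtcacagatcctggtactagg
Mmp3: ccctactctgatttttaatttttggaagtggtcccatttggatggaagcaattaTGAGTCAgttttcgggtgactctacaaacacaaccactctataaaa
Mmp10: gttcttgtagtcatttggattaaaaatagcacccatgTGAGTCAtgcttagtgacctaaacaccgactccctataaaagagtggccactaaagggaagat
Mmp7: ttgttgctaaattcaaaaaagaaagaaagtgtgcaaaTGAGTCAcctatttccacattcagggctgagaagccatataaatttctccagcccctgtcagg

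The motif began at position -35 of Mmp13, -44 of Mmp12, -46 of Mmp3 and -63 of both Mmp10 and Mmp7, counted from the annotated transcript start. Of the 4 cluster genes outside the set, Mmp1a and Mmp1b also hold it, and Mmp27 and Mmp20 do not. A match of letters is a description of the sequence and shows no binding.

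The deposited values were read as fragments per kilobase of transcript, scaled to the mapped fragments of the sample (FPKM). This unit was inferred from the numbers, since neither the labels nor the paper gives it. If it holds, levels of different genes can be set side by side. The values summed to between 308377 and 408811 per sample. Depth is not given by such values. A rough estimate of it was 23200000 to 29700000 fragments per sample. That estimate used only the lowest values within a range fixed beforehand, which bounds what it can give. Epithelial markers summed to between 3700 and 5419 FPKM in every sample, all labeled colorectum, and adipocyte markers were lower in both AOM/DSS groups (0 to 13.8 FPKM) than in Control (34.8 to 154 FPKM). All p-values are from limma on log2(FPKM + 0.1), adjusted over all 15278 genes, and differences are on that log2 scale with their standard error (SE). The comparisons of IgG with Control and of anti-A9 with IgG share the same 3 IgG mice, so opposite signs in them are partly built in.

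In the AOM/DSS + IgG Ab colons, 9 of the 10 genes rose over Control and none fell, against 8.18% of all 15278 genes tested that rose. The median difference of the 10 genes was 3.36, beside 0.09 over all genes tested. Since the 10 were chosen with earlier results known, their contrasts with all genes, here and below, were partly fixed in advance. In 9 of the 10 every IgG mouse lay above every Control mouse, which was the case for 20.7% of all genes. In the AOM/DSS + anti-S100a9 Ab colons, 9 of the 10 fell relative to IgG and none rose, against 14.4% of all genes that fell, with a median of -2.69 beside -0.06 over all genes; 9 did not overlap between the groups, compared with 28.5% of all genes. The gene that passed neither test was Mmp3. Between anti-A9 and Control, 0 of the 10 passed in limma, where 0.00655% of all genes rose, and 1 of the 10 (Mmp14) had an unadjusted p under 0.05 with a higher level, against 8.87% of all genes. The anti-A9 mice nonetheless lay above all Control mice for 6 of the 10 genes, namely Mmp2, Mmp3, Mmp8, Mmp10, Mmp14 and Timp1, while 17.3% of all genes did so. Counts in the marker lists and lists of related genes below are to be set beside the same shares. Of all 15278 genes, 1026 rose in anti-A9 relative to IgG. Those lists too were chosen with earlier results known.

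**Figure D1:**
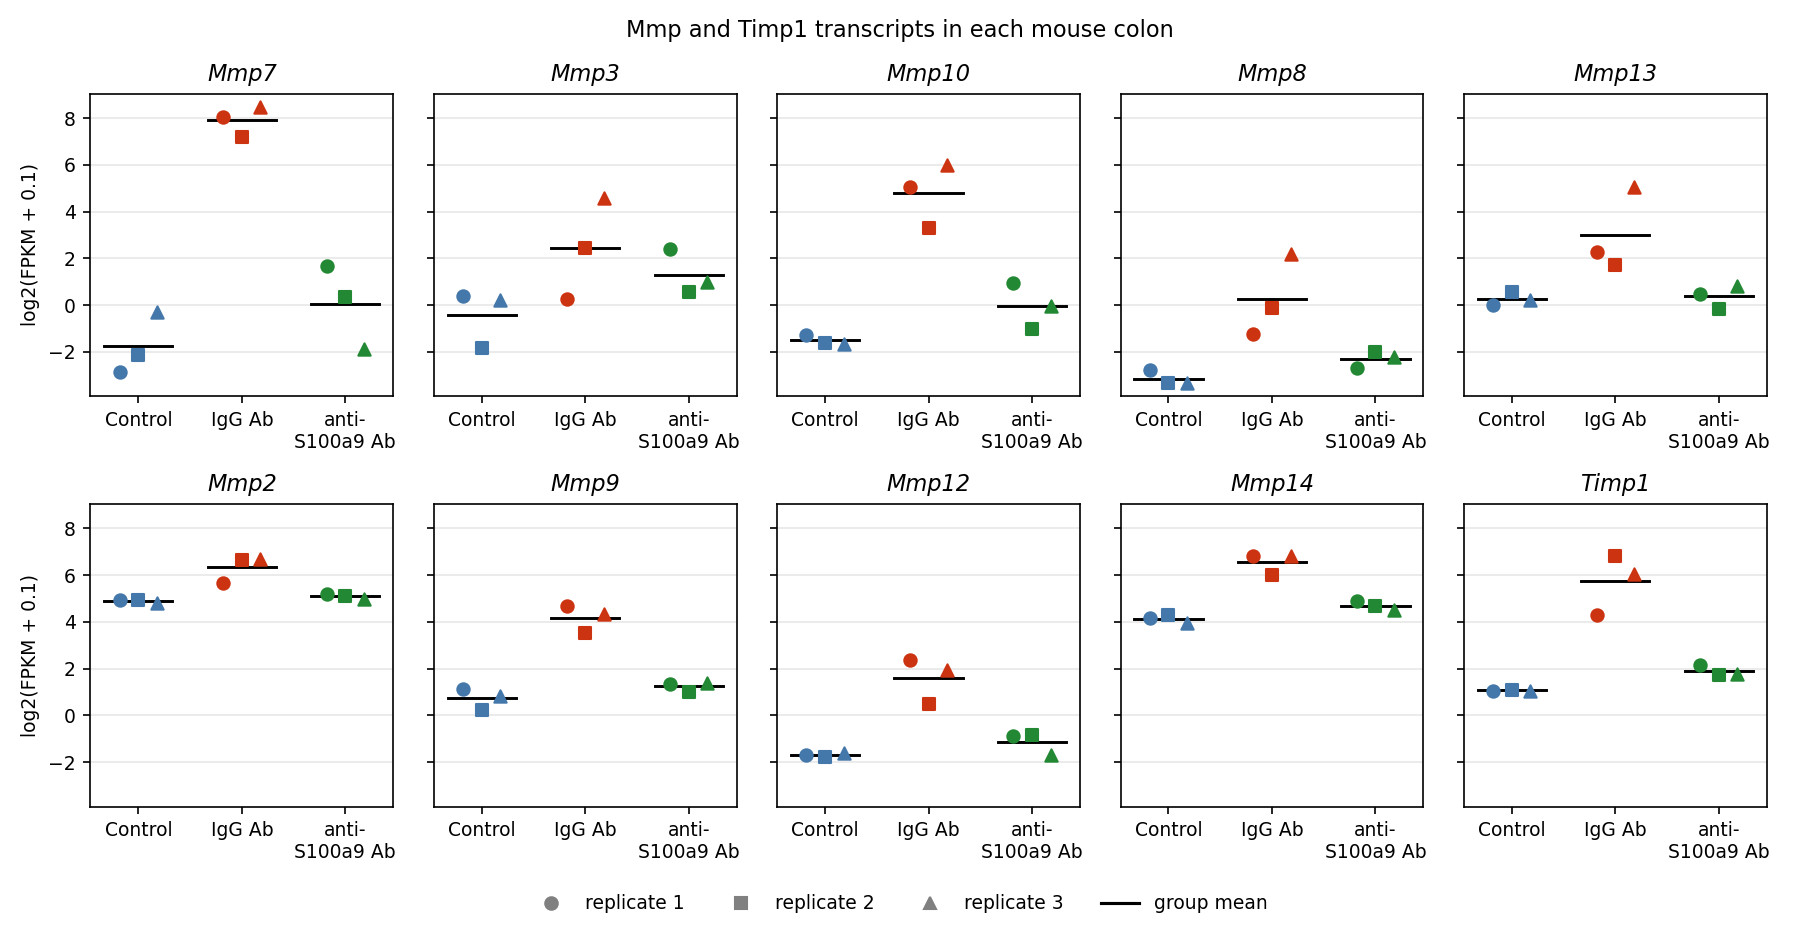
Level of each gene in each mouse on the log2(FPKM + 0.1) scale, by group, with a marker shape for each replicate number and a black line for the group mean. Mmp7 moves most, from at most 0.724 FPKM in Control mice to at least 148 FPKM in IgG mice, and Mmp3 is the gene whose IgG values overlap those of the other groups.

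Matrilysin, Mmp7, is a small epithelial protease that cuts matrix proteins and, in the Paneth cells of the small intestine, activates alpha-defensins. Its level was 0.0353, 0.125 and 0.724 FPKM in the Control mice, 263, 148 and 353 FPKM in the IgG mice, and 3.10, 1.17 and 0.173 FPKM in the anti-A9 mice. The IgG mice stood far above all others with no overlap, whereas the anti-A9 mice overlapped Control, anti-A9 replicate 3 lying below Control replicate 3. Mmp7 rose by 9.67 (SE 0.92, adjusted p = 0.00088) in IgG over Control. It fell by 7.85 (SE 0.92, adjusted p = 0.0031) in anti-A9 relative to IgG. Between anti-A9 and Control the difference was 1.82 with a 95% confidence interval of -0.25 to 3.90 (adjusted p = 0.35). By the rough estimate of depth, the Control values correspond to about 0.991, 3.11 and 18.7 fragments. With Control values this low, the size of the rise depends on the constant added before the logarithm: it was 7.57 with 1 FPKM added and 10.50 with 0.01 FPKM. Without Control replicate 3 the rise was 10.42, and without anti-A9 replicate 1 or 3 the difference from IgG was -8.67 or -6.89, all with the call kept. An antisense gene, AV064505, overlaps Mmp7 on the opposite strand, and whether strand was used in the counting is not given in the sources used here.

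Markers of Paneth cells, which are normally rare in the mouse colon, moved in the same samples as Mmp7. Of 7 markers, 5 could be tested, of which 4 (Lyz1, Defa17, Defa24 and Ang4) rose in IgG over Control and all 5 fell in anti-A9 relative to IgG; Defa21 was at 0 in every sample, and Defa22 was at 0 in all samples but 1. Their summed level was 78.9 to 187 FPKM in Control, 760 to 1618 FPKM in IgG and 51.5 to 103 FPKM in anti-A9 mice. Most of the Control sum was Itln1 (58.5, 107 and 111 FPKM), the tested marker that did not rise in IgG (0.03, adjusted p = 0.98). Its mean was 92.1 FPKM in Control, 109 FPKM in IgG and 21.3 FPKM in anti-A9 mice. Within the IgG group the sum was highest in replicate 2, where Mmp7 was lowest. Defa24, the most abundant of them in IgG mice and a member of a family of near-identical copies, was at 547 ± 220 FPKM there (SD, n = 3), at 0.370 ± 0.390 FPKM in Control and at 5.24 ± 6.19 FPKM in anti-A9. The part of these cells in the Mmp7 result was not tested.

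Stromelysins degrade proteoglycans, laminin and fibronectin and activate other metalloproteinases. Mmp10 (stromelysin-2), an enzyme of injured epithelium, measured 0.313, 0.227 and 0.218 FPKM in Control, 32.7, 9.69 and 64.3 FPKM in IgG and 1.83, 0.392 and 0.882 FPKM in anti-A9 mice. The 3 groups did not overlap, with anti-A9 between the others. It rose by 6.29 (SE 0.68, adjusted p = 0.0015) in IgG over Control and fell by 4.81 (SE 0.68, adjusted p = 0.0057) in anti-A9 relative to IgG. Leaving out IgG replicate 2 gave 7.04 and -5.56, and leaving out IgG replicate 3 gave 5.68 and -4.20. The anti-A9 mice exceeded Control by 1.48, with a 95% interval of -0.07 to 3.03 (adjusted p = 0.32).

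Mmp3 (stromelysin-1), made mostly by fibroblasts, was the exception among the 10. It measured 1.21, 0.181 and 1.05 FPKM in Control, 1.10, 5.32 and 23.6 FPKM in IgG and 5.10, 1.35 and 1.85 FPKM in anti-A9 mice. IgG replicate 1 lay within the Control range, and IgG replicate 3 was 21.5 times as high as IgG replicate 1, the widest spread of the 10 genes among the IgG mice. The difference of IgG from Control was 2.83 (SE 1.05, adjusted p = 0.11), and it passed only without IgG replicate 1 (3.92, adjusted p = 0.039) among the fits that left out a mouse, and was 1.76 without IgG replicate 3 (adjusted p = 0.24) and 2.13 without Control replicate 2 (adjusted p = 0.29). The anti-A9 mice did not pass against IgG (-1.13, 95% interval -3.50 to 1.25, adjusted p = 0.44) nor against Control (1.71, adjusted p = 0.42), although all 3 lay above all Control mice. The difference of anti-A9 from IgG rested on single IgG mice, being -2.21 without IgG replicate 1 (adjusted p = 0.12) and -0.05 without IgG replicate 3 (adjusted p = 0.97).

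Genes of squamous epithelium, which lines the anal canal, moved in the same direction as Mmp10. Of 7 such markers 5 could be tested, and Krt14, Krt13, Krt4 and Sprr1a each rose in IgG and fell in anti-A9. Krt5, at most 0.468 FPKM, passed in neither comparison (1.11, adjusted p = 0.16, and -0.41, adjusted p = 0.55). Sprr3 was at 0 in all samples and Trp63 was at most 0.0223 FPKM. Their sum was 1.97 to 5.05 FPKM in Control, 23.6 to 59.1 FPKM in IgG and 4.87 to 9.42 FPKM in anti-A9 mice. IgG replicate 2, the lowest IgG mouse for this sum, was also the lowest for Mmp10 and Mmp7; the part of squamous tissue in those results was not tested.

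Collagenases open the triple helix of fibrillar collagen. Mmp8, the collagenase stored in neutrophil granules, was at 0.0438, 0 and 0 FPKM in Control, at 0.327, 0.819 and 4.40 FPKM in IgG and at 0.0526, 0.147 and 0.112 FPKM in anti-A9 mice. The IgG mice were above all others, IgG replicate 3 most of all, and the anti-A9 mice were just above Control. The largest Control value stands for about 2.79 fragments by the rough estimate of depth. Mmp8 rose by 3.42 (SE 0.73, adjusted p = 0.022) in IgG and fell by 2.60 (SE 0.73, adjusted p = 0.038) in anti-A9 relative to IgG. Without Control replicate 1, 2 or 3 the rise was 3.60, 3.33 or 3.33 with an adjusted p of 0.055, 0.076 or 0.051. The fall did not pass without Control replicate 1 or 2 (adjusted p = 0.0505 and 0.056), nor without anti-A9 replicate 1, 2 or 3 (adjusted p of 0.11, 0.092 and 0.088). Without IgG replicate 3 the differences were 2.47 and -1.65, and without IgG replicate 1 they were 4.17 and -3.35. Between anti-A9 and Control the difference was 0.83 (95% interval -0.83 to 2.48, adjusted p = 0.57).

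Mmp13 (collagenase-3), found in stromal cells of wounds and tumors, measured 0.904, 1.39 and 1.07 FPKM in Control, 4.73, 3.16 and 32.8 FPKM in IgG and 1.31, 0.786 and 1.66 FPKM in anti-A9 mice. The IgG mice lay above both other groups, which overlapped each other, and IgG replicate 3 alone carried most of the mean. The rise in IgG was 2.74 (SE 0.75, adjusted p = 0.049) and the fall in anti-A9 relative to IgG 2.63 (SE 0.75, adjusted p = 0.039). Both were close to the threshold. The rise passed in only 2 of 9 fits that left out a mouse, those without IgG replicate 2 (3.39, adjusted p = 0.02) and without IgG replicate 3 (1.72, adjusted p = 0.034), and in the other fits the adjusted p reached 0.13 at most (2.60, without Control replicate 1). The fall passed without IgG replicate 2 (-3.28), without IgG replicate 3 (-1.61) and without Control replicate 3, and otherwise had an adjusted p of at most 0.12 (-2.35, without anti-A9 replicate 2). Against Control, anti-A9 differed by 0.11 (95% interval -1.58 to 1.80, adjusted p = 0.95).

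Gelatinases cut denatured collagen and the type IV collagen of basement membranes. Mmp9 (gelatinase B), carried by neutrophils and macrophages and inducible in epithelium, measured 2.08, 1.07 and 1.69 FPKM in Control, 25.3, 11.5 and 20.1 FPKM in IgG and 2.42, 1.89 and 2.49 FPKM in anti-A9 mice. The IgG mice were separate from the rest, while anti-A9 replicate 2 fell within the Control range. It rose by 3.45 (SE 0.33, adjusted p = 0.00088) in IgG and fell by 2.95 (SE 0.33, adjusted p = 0.0029) in anti-A9 relative to IgG, and it differed between anti-A9 and Control by 0.50 (95% interval -0.25 to 1.25, adjusted p = 0.45). No fit that left out a mouse moved either called fold change of Mmp9 by over 1.5 times.

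Mmp2 (gelatinase A) is made by fibroblasts in resting tissue and was the most abundant of the 10 genes in Control colon. Its level was 30.8, 30.9 and 27.7 FPKM in Control, 50.3, 99.8 and 104 FPKM in IgG and 36.7, 34.3 and 31.2 FPKM in anti-A9 mice. The groups did not overlap, although anti-A9 replicate 3 exceeded the highest Control mouse by little. The rise of 1.43 (SE 0.25, adjusted p = 0.011) in IgG and the fall of 1.24 (SE 0.25, adjusted p = 0.016) in anti-A9 relative to IgG were the smallest of the called differences. Without anti-A9 replicate 1, 2 or 3 that fall was no longer called (-1.30, -1.25 and -1.18, with adjusted p of 0.0501, 0.059 and 0.054). The difference of anti-A9 from Control was 0.19 (95% interval -0.39 to 0.77, adjusted p = 0.72).

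Mmp14, the membrane-type metalloproteinase that activates the Mmp2 precursor at the cell surface together with Timp2, measured 17.6, 19.7 and 15.3 FPKM in Control, 114, 64.6 and 114 FPKM in IgG and 29.2, 25.4 and 22.6 FPKM in anti-A9 mice. No groups overlapped, and anti-A9 lay nearer to Control. It rose by 2.43 (SE 0.23, adjusted p = 0.00088) in IgG and fell by 1.88 (SE 0.23, adjusted p = 0.0037) in anti-A9 relative to IgG. The excess of anti-A9 over Control was 0.55, with a 95% interval of 0.03 to 1.07 and an adjusted p of 0.31 (unadjusted p = 0.042).

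Mmp12 (macrophage elastase) was low throughout. It measured 0.205, 0.190 and 0.228 FPKM in Control, 5.00, 1.29 and 3.76 FPKM in IgG and 0.437, 0.453 and 0.204 FPKM in anti-A9 mice. All IgG mice were above all others, and anti-A9 overlapped Control through its replicate 3. The rise in IgG was 3.29 (SE 0.48, adjusted p = 0.0048) and the fall in anti-A9 relative to IgG 2.75 (SE 0.48, adjusted p = 0.01). Between anti-A9 and Control the difference was 0.55 (95% interval -0.53 to 1.62, adjusted p = 0.57). Its 3′ end overlaps Mmp1b on the opposite strand, for which the files list 0 in every sample.

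Neutrophil and macrophage markers were measured beside these genes. Of 10 neutrophil markers, 9 were tested. S100a8, S100a9, Csf3r, Cxcr2 and Ltf rose in IgG over Control, and 4 of these, all but Csf3r, fell in anti-A9 relative to IgG. Ly6g, a surface protein of neutrophils, had differences of the opposite sign that did not pass (-0.74, adjusted p = 0.33, in IgG over Control and 0.94, adjusted p = 0.17, in anti-A9 relative to IgG). The sum of the markers was 90.9 to 120 FPKM in Control, 132 to 616 FPKM in IgG and 101 to 181 FPKM in anti-A9 mice. Ly6g made up most of it in Control. Among granule genes, Mpo was at 0.0449 to 0.159 FPKM and Elane at 0 in 7 of 9 samples. Others were higher in some IgG mice. In IgG replicates 1, 2 and 3, Ltf was at 3.84, 1.75 and 0.704 FPKM, Ngp at 0.113, 4.47 and 5.33 FPKM and Camp at 0.0753, 2.42 and 0.147 FPKM. Ngp and Camp passed in neither comparison. S100a9, which neutrophils and inflamed epithelium make, was at 0.602 ± 0.245 FPKM in Control, 168 ± 102 FPKM in IgG (SD, n = 3) and 9.16 ± 3.20 FPKM in anti-A9 mice. Of 10 macrophage markers 0 passed in either comparison by limma (0 and 1 had an unadjusted p under 0.05), and their sum was 666 to 1511 FPKM in Control, 670 to 1176 FPKM in IgG and 1063 to 1306 FPKM in anti-A9 mice, Lyz2 being the most abundant. The part of these cells in the results for Mmp8, Mmp9 and Mmp12 was not tested.

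Timp1, the inhibitor, also rose. Its level was 1.97, 2.04 and 1.97 FPKM in Control, 19.7, 113 and 67.0 FPKM in IgG and 4.32, 3.22 and 3.28 FPKM in anti-A9 mice. The groups did not overlap, and the Control mice differed among themselves by 1.04 times, less than for any other of the 10 genes. Timp1 rose by 4.67 (SE 0.52, adjusted p = 0.0016) in IgG and fell by 3.85 (SE 0.52, adjusted p = 0.0049) in anti-A9 relative to IgG; without IgG replicate 1, the lowest IgG mouse, these were 5.38 and -4.57. Against Control, anti-A9 was higher by 0.81 (95% interval -0.37 to 1.99, adjusted p = 0.44). Timp1 lies inside the gene Syn1 on the opposite strand, and Syn1 was at 0.508 to 1.81 FPKM in all samples, lowest in IgG replicate 1.

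Some fibroblast markers moved with Timp1 and Mmp2. Of 8 markers, all tested, 5 rose in IgG (Col1a1, Col1a2, Col3a1, Pdgfra and Pdgfrb) and the 3 collagens fell in anti-A9 relative to IgG. These collagens are also counted among the matrix genes below. Dcn and Lum, which fibroblasts also make, passed in neither comparison. Both had the opposite sign in anti-A9 relative to IgG (0.32, adjusted p = 0.19, and 0.77, adjusted p = 0.28). Lum also did so in IgG over Control (-0.26, adjusted p = 0.77). The Col1a1 and Col1a2 calls in IgG held in 1 of 9 refits, each without 1 mouse, and that of Col3a1 in 5. The sum was 442 to 517 FPKM in Control, 584 to 767 FPKM in anti-A9 and 641 to 2131 FPKM in IgG mice. Within the IgG group it was highest in replicate 2, as Timp1 was, and lowest in replicate 1. Smooth muscle markers were low in IgG replicate 1, at 354 FPKM, and in replicate 2, at 726 FPKM, but not in replicate 3, at 2426 FPKM, beside 1250 to 2787 FPKM in the Control and anti-A9 mice. The part of stromal content in the Timp1 and Mmp2 results was not tested.

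**Figure D2:**
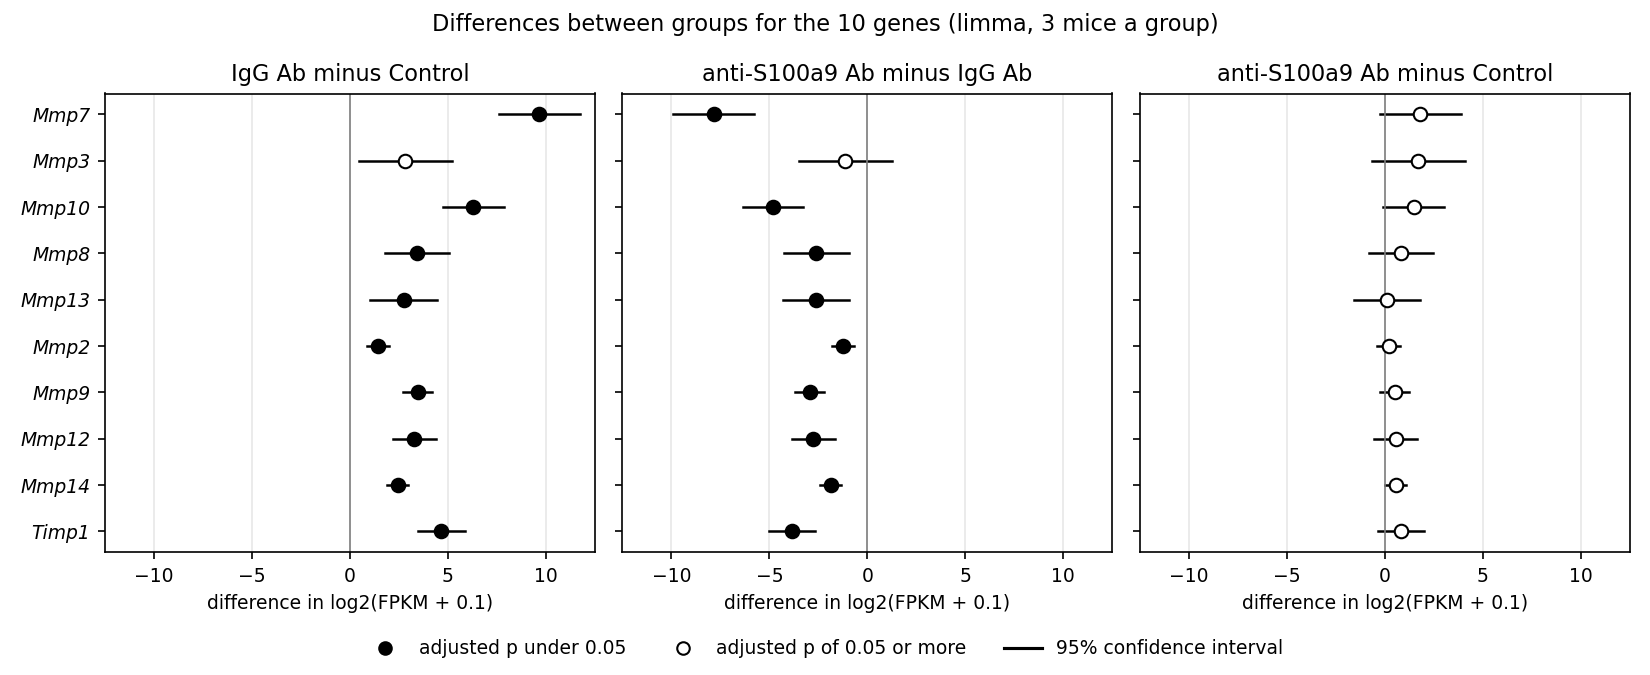
Difference between groups for each gene on the log2(FPKM + 0.1) scale with its 95% confidence interval, in 3 panels for the 3 comparisons. Filled circles mark an adjusted p under 0.05; 9 genes are filled on the right of 0 for IgG Ab minus Control, 9 on the left for anti-S100a9 Ab minus IgG Ab, and 0 for anti-S100a9 Ab minus Control.

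The IgG mice did not order the genes alike. IgG replicate 3 had the highest level of 6 of the 10 genes (Mmp2, Mmp3, Mmp7, Mmp8, Mmp10 and Mmp13), and the lowest of 0. IgG replicate 1 was the highest for Mmp9, Mmp12 and Mmp14 but the lowest for Mmp2, Mmp3, Mmp8 and Timp1. IgG replicate 2 was the lowest for 6 genes and the highest for Timp1 alone. The ratio of the highest to the lowest IgG mouse ran from 1.77 for Mmp14 to 21.5 for Mmp3, and was 13.4 for Mmp8 and 10.4 for Mmp13. Groups of 3 mice leave such differences between animals without a test.

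Ranked by mean level, the 10 genes changed places with treatment. In Control colon Mmp2 (29.8 ± 1.83 FPKM; SD, n = 3 here and below) and Mmp14 (17.6 ± 2.19 FPKM) led, each above the next gene in all mice, and were followed by Timp1 (2.00 ± 0.0428 FPKM), Mmp9, Mmp13, Mmp3, Mmp7, Mmp10 and Mmp12, of which each overlapped its neighbor, and by Mmp8, below Mmp12 in every mouse. In IgG mice Mmp7 came first at 255 ± 103 FPKM, above every other gene in all 3 mice, followed by Mmp14 (97.5 ± 28.5 FPKM), Mmp2 (84.8 ± 29.9 FPKM), Timp1 (66.5 ± 46.6 FPKM), Mmp10 (35.6 ± 27.4 FPKM), Mmp9 (19.0 ± 6.97 FPKM), Mmp13, Mmp3, Mmp12 and Mmp8; from Mmp14 downward, neighbors in this order overlapped. In anti-A9 mice Mmp2 (34.0 FPKM) and Mmp14 (25.7 FPKM) led again without overlap, and Mmp7, at 1.48 ± 1.49 FPKM, ranked below Timp1, Mmp3 and Mmp9.

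Added up, the 9 metalloproteinases gave 53.3, 53.8 and 48.0 FPKM in the Control mice, 497, 344 and 720 FPKM in the IgG mice and 80.1, 65.9 and 61.1 FPKM in the anti-A9 mice. The IgG sums were the highest and the anti-A9 sums lay between without overlap. Mmp7 supplied 0.0663, 0.233 and 1.51% of the sum in Control, 53.0, 42.9 and 49.1% in IgG and 3.87, 1.78 and 0.282% in anti-A9 mice. Mmp2 made up 57.4 to 57.9% of it in Control, 10.1 to 29.0% in IgG and 45.8 to 52.0% in anti-A9 mice, so that its share was lower in every IgG mouse although its level was higher.

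The ratio of summed metalloproteinase to Timp1 FPKM was 27.1, 26.3 and 24.3 in Control, 25.2, 3.05 and 10.8 in IgG and 18.5, 20.4 and 18.6 in anti-A9 mice. In IgG replicate 1 the ratio thus lay within the Control range, whereas IgG replicates 2 and 3 were below all other mice. The anti-A9 mice were below all Control mice. These sums, shares and ratios are given as values, with no p, since with 3 mice against 3 an exact permutation test cannot go below 0.1.

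**Figure D3:**
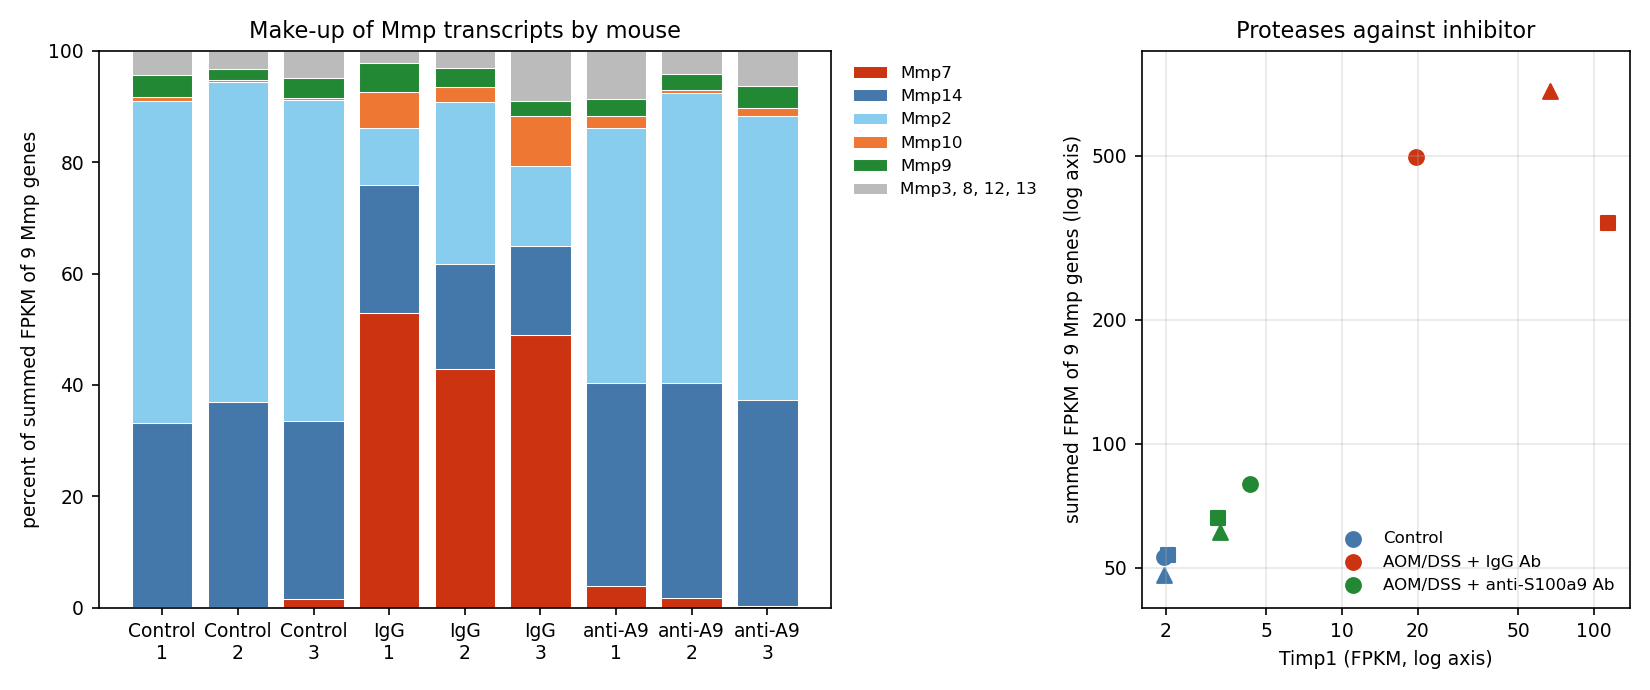
Left, the share of each metalloproteinase in the summed FPKM of the 9 Mmp genes for each mouse, as stacked bars from 0 to 100%. Right, that sum against Timp1 in FPKM on log axes, a point for each mouse, with a circle, square or triangle for replicate 1, 2 or 3; Mmp7 fills 42.9 to 53.0% of the bar in IgG mice and at most 3.87% elsewhere, and the IgG mice spread widely along the Timp1 axis.

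Within the chromosome 9 cluster, neighboring genes did not all change. The 6 genes of the set in it were interspersed with Mmp1b and Mmp1a, both listed at 0 in all samples, with Mmp27 and with Mmp20. Mmp27 was at 0.0310, 0 and 0 FPKM in Control, 0.0166, 0.192 and 0.0979 FPKM in IgG and 0.436, 0.414 and 0.359 FPKM in anti-A9 mice. It was thus highest in every anti-A9 mouse, higher than in IgG by 1.41 (SE 0.36, adjusted p = 0.028), the opposite direction to Mmp8 beside it, at a very low level. Mmp20, the enamel protease, was listed at 0.340, 0.134 and 0.0918 FPKM in IgG mice and at 0 in all others. It was left out by the filter together with Mmp1a and Mmp1b. The antisense gene AV064505 overlaps Mmp20 as well as Mmp7.

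**Figure D4:**
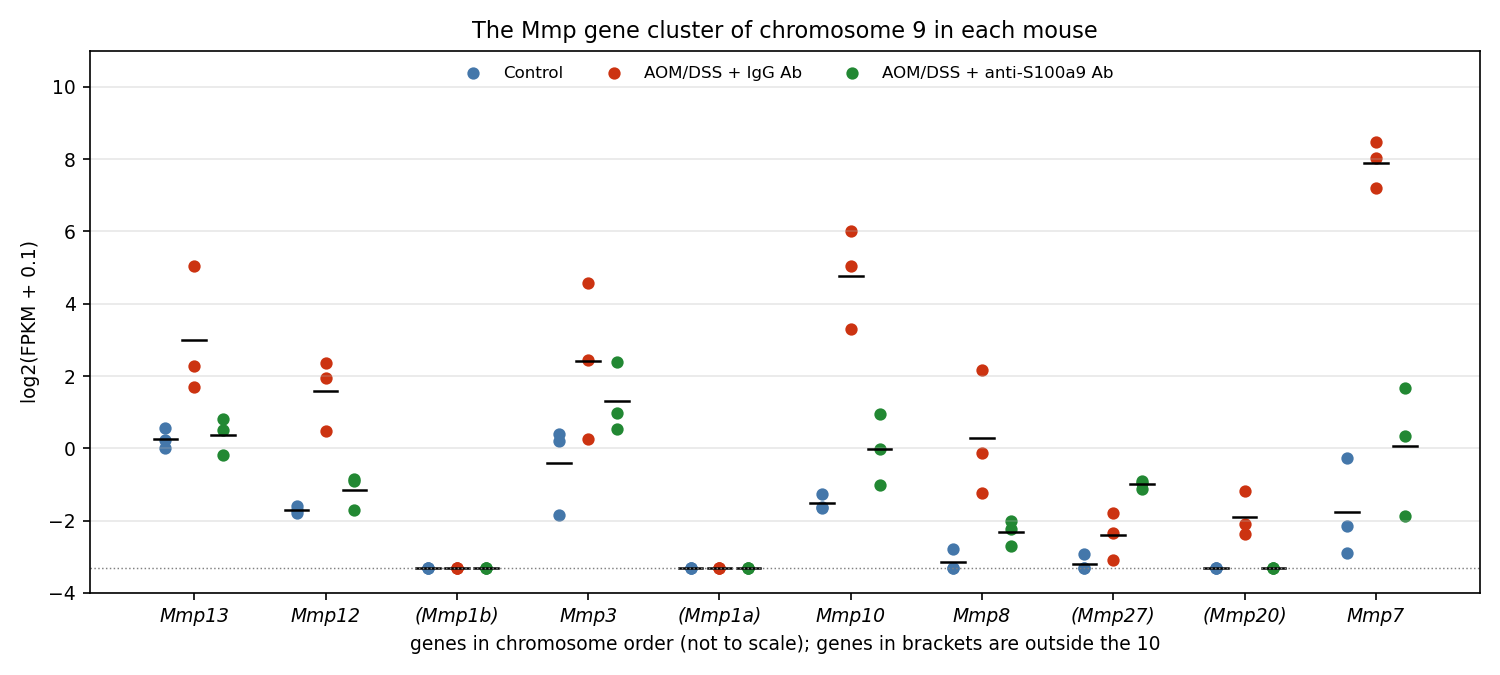
Level of the 10 genes of the chromosome 9 cluster in each mouse on the log2(FPKM + 0.1) scale, in their order along the chromosome, with black lines for group means and a dotted line at 0 FPKM. Mmp13, Mmp12, Mmp10, Mmp8 and Mmp7 have all IgG points above the other groups, Mmp1b and Mmp1a stay at 0, and Mmp27 is highest in the anti-S100a9 Ab mice.

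Of 14 further Mmp genes, 10 could be tested, and their median difference was 0.55 between IgG and Control and 0.07 between anti-A9 and IgG. Mmp28 (epilysin), an enzyme of epithelium, rose in IgG (1.46, SE 0.22, adjusted p = 0.0062), from 1.79 ± 0.0775 to 5.10 ± 0.455 FPKM (SD, n = 3), and fell in anti-A9 relative to IgG (-0.78, adjusted p = 0.041). Mmp15, another membrane-type enzyme, was the most abundant of these at 42.2 ± 2.69 FPKM in Control, and it fell in anti-A9 relative to IgG by 0.72 (adjusted p = 0.023) without passing in IgG over Control (0.32, adjusted p = 0.24). Mmp17, which is anchored to the membrane by a lipid tail, went the other way and was higher in anti-A9 than in IgG (1.30, adjusted p = 0.045), as was Mmp27. When each mouse was left out in turn, the Mmp17 call held in 1 of 9 fits, that of Mmp27 in 4, and those of Mmp28 and Mmp15 in anti-A9 relative to IgG in 2 and 6. Mmp23 reached 14.3 ± 7.33 FPKM in IgG without passing (0.93, adjusted p = 0.18). Among these 14 genes 1 was called in IgG over Control, and 2 were called lower and 2 higher in anti-A9 relative to IgG. Over all 15278 genes tested, 8.18% rose in IgG over Control, while 14.4% fell and 1026 genes rose in anti-A9 relative to IgG. The 1 rise in IgG and the 2 falls in anti-A9 among the 10 tested genes lay near those shares.

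Of 6 other inhibitors, 5 were tested. In limma 0 passed in IgG over Control, where Timp4 and Reck had a lower level with an unadjusted p of 0.015 each. In anti-A9, 2 were higher than in IgG, beside 1026 of all 15278 genes. Timp2, which also takes part in activating Mmp2, was at 56.4 ± 6.41 FPKM in Control, 64.4 ± 9.47 FPKM in IgG and 87.1 ± 11.9 FPKM in anti-A9 mice. It passed in no comparison, with 0.19 (adjusted p = 0.47) for IgG over Control. The differences were 0.44 (adjusted p = 0.082) for anti-A9 relative to IgG and 0.62 (adjusted p = 0.3) for anti-A9 over Control. Every anti-A9 mouse nonetheless lay above every mouse of the other groups. Timp3, which is bound to the matrix, was higher in anti-A9 than in IgG by 0.89 (SE 0.27, adjusted p = 0.045), with 26.2, 30.4 and 35.4 FPKM in IgG and 69.4, 55.6 and 47.3 FPKM in anti-A9 mice. Reck, a membrane-bound inhibitor of several metalloproteinases, was higher by 1.56 (SE 0.27, adjusted p = 0.011), at 1.64, 2.09 and 1.21 FPKM in IgG and 5.11, 4.97 and 4.69 FPKM in anti-A9 mice. In both genes the groups did not overlap, but the Timp3 call held in 2 of 9 refits, each without 1 mouse, and the Reck call in all 9. Neither passed between anti-A9 and Control (0.75 and 0.74, adjusted p = 0.3 for each). A2m had the largest differences of the 5 without passing. They were 1.98 (SE 1.36, adjusted p = 0.36) in IgG over Control and -1.67 (adjusted p = 0.38) in anti-A9 relative to IgG. Both rested on IgG replicate 2, at 9.07 FPKM, beside at most 0.160 FPKM in every other sample.

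Plasmin, formed from plasminogen by Plat and Plau, can activate metalloproteinase precursors. Of 7 genes of this system 5 were tested, of which 3 (Plat, Plaur and Serpine2) rose in IgG over Control and 2 (Plat and Plaur) fell in anti-A9 relative to IgG. Of all genes tested, 8.18% rose and 14.4% fell in these comparisons. Plat, tissue plasminogen activator, was at 3.37, 3.12 and 2.87 FPKM in Control, 95.2, 50.8 and 70.6 FPKM in IgG and 6.80, 4.46 and 3.25 FPKM in anti-A9 mice. No Plat value of the IgG mice came near those of the other groups, with a rise of 4.44 (SE 0.29, adjusted p = 0.00025) and a fall of 3.89 (SE 0.29, adjusted p = 0.00096). Plaur, the urokinase receptor, rose by 2.19 (adjusted p = 0.0083) and fell by 1.42 (adjusted p = 0.029). Serpine2, a secreted serine protease inhibitor, rose by 2.03 (adjusted p = 0.049) and did not pass in anti-A9 relative to IgG (-1.40, adjusted p = 0.099). Plau itself, urokinase, passed in neither comparison (0.84, adjusted p = 0.13, and -0.93, adjusted p = 0.068). Plg, the precursor, was at or near 0 in all samples.

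Genes of proteins that metalloproteinases cut rose as well. Of 9 matrix genes, all tested, 7 rose in IgG over Control, and 4 (Col1a1, Col1a2, Col3a1 and Spp1) fell in anti-A9 relative to IgG. Spp1, osteopontin, showed the largest difference of them, with 0.285, 0.214 and 0.397 FPKM in Control, 51.8, 17.9 and 21.4 FPKM in IgG and 0.760, 0.477 and 1.12 FPKM in anti-A9 mice. All groups were separate, and Spp1 rose by 6.12 (SE 0.44, adjusted p = 0.00031) and fell by 5.01 (SE 0.44, adjusted p = 0.0012). Col1a1, of fibrillar collagen, rose by 2.44 (adjusted p = 0.037) and fell by 2.54 (adjusted p = 0.024), and Col3a1, of another fibrillar collagen, rose by 2.20 (adjusted p = 0.02) and fell by 1.86 (adjusted p = 0.027). Fn1 rose in IgG (1.42, adjusted p = 0.046) but had -0.45 (adjusted p = 0.4) in anti-A9 relative to IgG. Among all 15278 genes tested, 8.18% rose in IgG over Control, while 14.4% fell and 1026 genes rose in anti-A9 relative to IgG. Between anti-A9 and Control, 8.87% of them were higher at an unadjusted p under 0.05 in limma. Over all 36 genes of these 4 lists, 29 could be tested, with 11 higher and 0 lower in IgG over Control, 8 lower and 4 higher in anti-A9 relative to IgG, and 0 in limma between anti-A9 and Control, where 8 were higher and 1 lower at an unadjusted p under 0.05, 3 of them over 2-fold higher. Many of these calls lay near the threshold: without Control replicate 1, 2 or 3 only 4 of the genes rose in IgG, and without anti-A9 replicate 1, 2 or 3 only 5, 5 or 6 rose in IgG and 3, 2 or 2 fell in anti-A9 relative to IgG. Without IgG replicate 3, 7 rose and 4 fell. Of the 11 rises, those of Mmp28, Plaur, Plat and Spp1 passed in all 9 refits with a mouse left out, while Col1a1 and Col1a2 passed in 1, Serpine2 and Fn1 in 2, Col4a1 and Col4a2 in 3 and Col3a1 in 5. Of the 8 falls, those of Plat and Spp1 passed in all 9, while Mmp15 and Plaur passed in 6, Col1a1 and Col3a1 in 5, Mmp28 in 2 and Col1a2 in 1. Of the 4 genes higher in anti-A9 than in IgG, Reck alone passed in all 9, and it was the only one left without IgG replicate 1 or without anti-A9 replicate 1, 2 or 3.

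**Figure D5:**
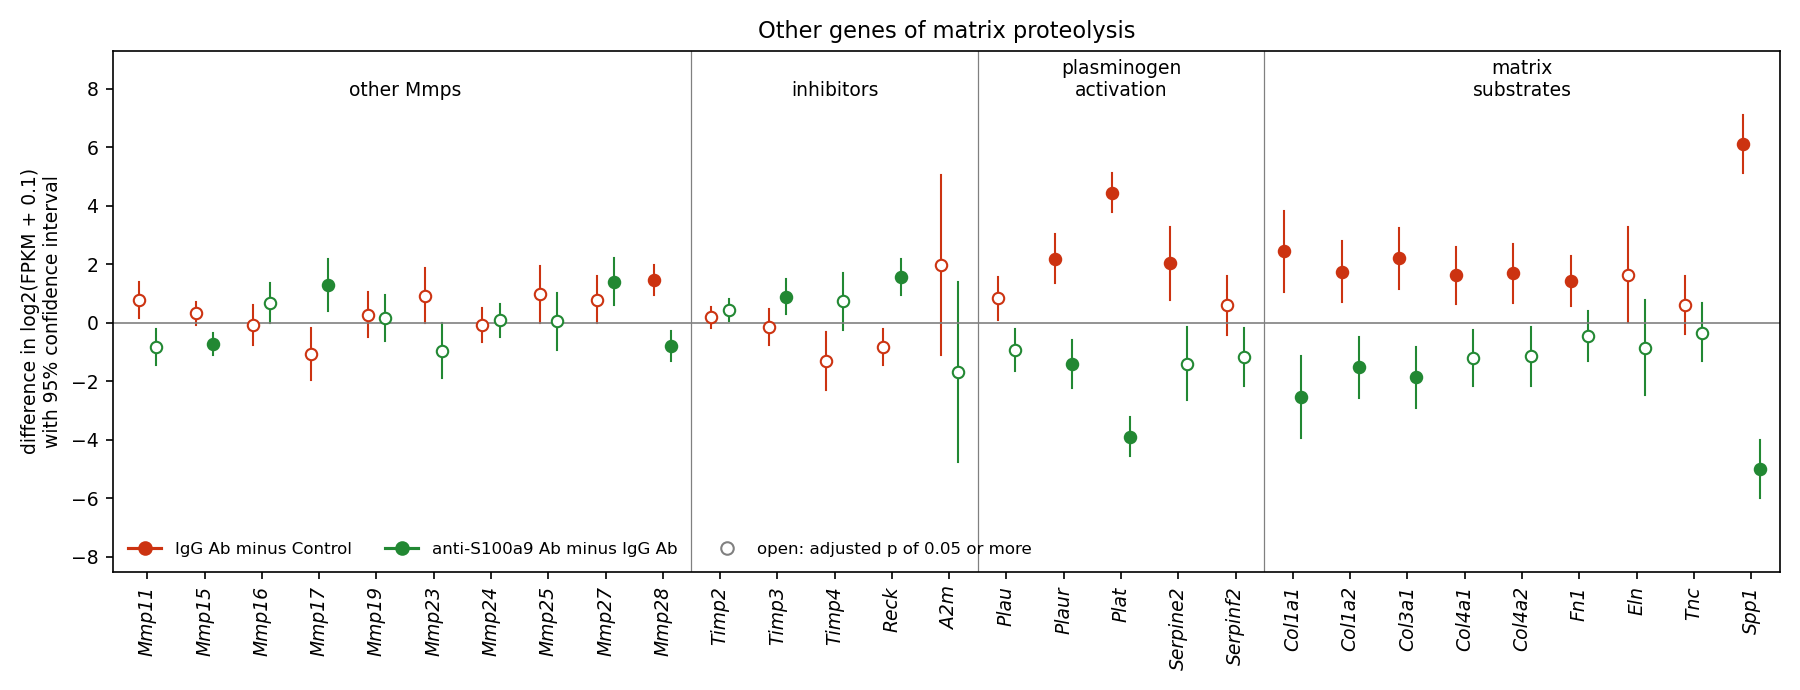
Difference in log2(FPKM + 0.1) with its 95% confidence interval for the 29 other genes of matrix proteolysis that could be tested, in red for IgG Ab minus Control and in green for anti-S100a9 Ab minus IgG Ab; filled circles have an adjusted p under 0.05. Plat and Spp1 stand out in both directions, and Timp3 and Reck are above 0 for anti-S100a9 Ab minus IgG Ab.

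The patterns most like those of 3 of the genes over the 9 samples were sought among 13075 genes with a mean of at least 1 FPKM in a group, by Pearson's r of log2(FPKM + 0.1). For Mmp7 these were Trem1 (r = 0.986), Smoc1 (r = 0.986) and Cyp2b10 (r = 0.985). For Mmp9 they were Vash2 (r = 0.993), Gm14137 (r = 0.991) and Gata5 (r = 0.991), and for Timp1 Trim15 (r = 0.982), Igf1 (r = 0.978) and Lox (r = 0.977), the last of which cross-links collagen. The IgG mice stand apart from the other 6 in Mmp7, Mmp9 and Timp1, so r over the samples largely carries that difference. In all, 114 genes had an r of at least 0.95 with Mmp7, 197 with Mmp9 and 24 with Timp1. Among the 10 genes themselves r ran from 0.545 (Mmp3 with Mmp12) to 0.983 (Mmp10 with Mmp14).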

How the data were processed

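Colon RNA of 9 mice, 3 per group by the sample labels, was examined. The authors deposited 1 table per mouse, with an FPKM value beside each of 21544 gene symbols; that the unit is FPKM was inferred from the numbers, since neither the labels nor the paper gives it. The submitters' processing notes name TopHat, Cufflinks, HTSeq, DESeq and the GRCm38 build, without roles or versions; the methods state that RNA with an integrity number of at least 7 was sequenced. Whether the counting used strand is not given in the sources used here.

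Repeated symbols were summed (46 repeated rows, none of a gene of the set), leaving 21498 symbols. A linear model of group was fitted to log2(FPKM + 0.1) of all 9 samples for the 15278 genes that reached 0.1 FPKM in 3 or more samples, with limma 3.58.1 in R 4.3.3 (empirical Bayes with intensity trend, 8.87 degrees of freedom), and p-values were adjusted by Benjamini-Hochberg over all genes. A gene was called at an adjusted p under 0.05. The script was tested on simulated data. Intervals are 95% t intervals from the same fit; sums and figures were made in Python 3.11.15. No 2 files held the same values. The labels call the samples biological replicates; each is 1 mouse, and the sampling site along the colon is not given.

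Depth is not given by FPKM values. It was estimated from the smallest FPKM steps of genes with 1 annotated transcript (GENCODE M21). Only low values within a range fixed beforehand were used, and that range bounds the depth that can result. Of low values, 54.1 to 62.8% came within 0.2 of a whole fragment. Whole counts were therefore not recovered, no counting interval was computed, and the fragment numbers given for single genes are rough. Precision rests on 3 mice per group.

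The members and gene lists were chosen with earlier results of these data known. Named were all 10 members; of 4 lists of related genes, those called, up to the 3 with the largest difference per list, and Mmp and inhibitor genes with a mean of at least 10 FPKM; of marker lists, the most abundant gene and those a result turns on; and the 3 genes most like Mmp7, Mmp9 and Timp1. Some genes of the lists of related genes are not reported here and are left out of their counts. Genes outside these were named after their values were seen. The planned exact permutation tests of sums and ratios over the members are not given, since the members were chosen with results known.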

Additional observations from a re-analysis of the deposited data

How the results depend on the processing

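The counts of 9 genes higher in IgG and 9 lower in anti-A9 ranged from 7 to 9 and from 6 to 9 when each mouse was left out in turn, and from 7 to 10 and from 7 to 9 over the other settings (other pseudocounts, filters, scalings, variance models, samples in the fit and the study's thresholds). Mmp7, Mmp9, Mmp10, Mmp12, Mmp14 and Timp1 were called in both comparisons in all 20 refits; Mmp2 was lost only when an anti-A9 mouse was left out. Mmp13 and Mmp8 were lost under several settings, among them 1 FPKM as pseudocount (Mmp13 2.14 and -2.07, Mmp8 1.21 and -1.09) and fits of only the 2 groups compared (adjusted p = 0.11 and 0.071 for Mmp13, 0.07 and 0.068 for Mmp8). With at least 1 FPKM in 3 samples required, Mmp8 was not tested.

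The 0 genes of the set called between anti-A9 and Control became 3 with array quality weights (Mmp7, Mmp3 and Mmp9), and the 0 related genes became 6. That setting also called 1379 higher and 1205 lower genes over all, beside 1 and 1, with weights between 0.247 and 5.071 per mouse. For related genes, 3 passed the study's thresholds there. Mmp13 changed sign between anti-A9 and Control (-0.04 by quantile normalization, -0.07 with array weights, and between -0.11 and 0.39 leaving out a mouse, below 0 without Control replicate 1 or anti-A9 replicate 3), with an adjusted p of at least 0.93 wherever it did.

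Of related genes, 11 were higher in IgG; the number was 5 with median-of-ratios scaling, 6 without the intensity trend, 7 with quantile normalization or no filter on low values, 4 with only the 2 groups compared, and 4 to 12 leaving out a mouse. The 8 lower in anti-A9 than in IgG became 5 with equal FPKM totals or only the 2 groups compared, and 2 to 11 leaving out a mouse. Timp3 and Mmp15 were not called with values scaled to equal FPKM totals. The cause of these changes was not tested.

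Whether replicate numbers pair the mice cannot be settled with 3 mice per group. Same-numbered deviations correlated by 0.019, 0.076 and 0.059 on average over the 3 pairs of groups, and other-numbered ones by -0.011, -0.039 and -0.030. The lowest same-numbered value was -0.187, and 1, 2 and 2 of 3 mice correlated best with their own number. With a replicate block, 9, 9 and 0 genes of the set were called and 5, 7 and 0 related genes.

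Scaling to equal FPKM totals moved the median of all genes to 0.175 for IgG against Control and 0.227 for anti-A9 against Control (0.094 and 0.039 as deposited), and differences from Control are to be read against that shift. Of all genes called in anti-A9 relative to IgG, 68.1% were lower; this was 52.7% with equal totals, 55.1% with quantile normalization and 58.9% with median-of-ratios scaling. Of those called in IgG, 73.1% were higher, and 60.0% with quantile normalization.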
